A study of Saccharomyces cerevisiae with 12 samples.

Results

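The proteasome genes of Saccharomyces cerevisiae described here are 32 genes for subunits of the 20S core and of the 19S particle together with *RPN4*, the gene of their transcription factor. They were chosen by name, as the PRE, PUP, RPT and RPN genes and *SCL1*, by a rule that used no measured value, although the set was proposed with earlier results of these data known. They make 33 of the 7126 genes in the count data, and all 33 were present in every library and passed the filter on low counts, which left 6003 genes for testing. Polysome mRNA-Seq was carried out on a wildtype strain and on ΔES27Lb, whose ribosomes lack the b-arm of expansion segment ES27L of the 25S rRNA. From each strain, poly(A) RNA of whole lysates (total mRNA, T) and of pooled polysomal gradient fractions (polysomal mRNA, P) was sequenced in 3 replicates, which gives 4 conditions and 12 libraries. Both strains were derived from yJD1045 (NOY891), a MATa strain with ade2, ura3, leu2, his3, trp1 and can1 alleles whose genomic rDNA was deleted (rdn1ΔΔ::HIS3). All of their rRNA was made from a plasmid, with the 35S pre-rRNA under a doxycycline-repressible TET promoter that RNA polymerase II transcribes and with an 18S point mutation that gives resistance to Hygromycin B. The wildtype group carried the plasmid with the full 35S sequence and the ΔES27Lb group the one with the deletion. Both groups thus lack the genomic rDNA of an ordinary laboratory strain, and both were maintained with Hygromycin B. Per the labels, cells for both pools were grown in YPD to an OD600 of 0.8. Whether the 3 replicates of a strain came from separate transformants was not given in the sources used here, and p-values measure the spread between these libraries only.

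The proteasome is the protease that degrades ubiquitin-tagged proteins. Its 20S core is a barrel of stacked rings, with alpha subunits forming the gated outer rings and beta subunits the inner rings, where Pre3, Pup1 and Pre2 carry the caspase-like, trypsin-like and chymotrypsin-like active sites. The 19S particle caps the barrel: the Rpt ATPases unfold substrates, Rpn1, Rpn10 and Rpn13 bind ubiquitin, Rpn1 and Rpn2 are its large scaffold proteins, and the lid holds Rpn11, which removes the ubiquitin chain. In yeast, Rpn4 activates the subunit genes through a promoter element called PACE, and Rpn4 is itself rapidly degraded by the proteasome, which closes a feedback loop on proteasome supply.

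The shared element is shown first, since it is the feature that ties the subunit genes together. The letters GGTGGCAAA were searched on both strands of a 300-base window, from 250 bases before to 50 bases after the start codon, in the R64 reference genome of S288C. The counts themselves were made on BY4742, so the sequences describe the reference and not the strain used. PACE was found in 27 of the 33 windows (81.8%), in 12 of 14 20S genes and in 15 of 18 19S genes, beside 45 of the 5974 other nuclear protein-coding genes (0.753%) and 1.2% of all 6007 windows. Since PACE is known as the element of these subunit genes, its high share among them describes the set and tests nothing. The looser form GGTGGCNAA, which includes the first, added *RPN10* and *RPN13* and was found in 1.78% of all windows. Neither form was in the windows of *PRE5*, *PUP1*, *RPN8* and *RPN4*. The following sites are those of the genes that the results below turn on. They come from the RefSeq copy of R64 and are written 5′ to 3′ on the strand of the gene, with the motif in capitals and 10 bases on either side.
PRE3 (chrX:435035-435063, plus strand): aacggaatccGGTGGCAAAaaagggaaaa
PRE2 (chrXVI:732184-732212, plus strand): acagcaaaagGGTGGCAAAacgaagaata
PRE8 (chrXIII:86841-86869, minus strand): agcttattaaGGTGGCAAAattgtccccg
PRE4 (chrVI:249959-249987, minus strand): tggtttagaaTTTGCCACCttaaatacgt
SCL1 (chrVII:475337-475365, minus strand): cacacaccaaTTTGCCACCgtaaggatag
RPT2 (chrIV:437906-437934, plus strand): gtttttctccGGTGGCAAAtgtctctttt
RPN1 (chrVIII:164838-164866, minus strand): tgtgttttacGGTGGCAAAaggcgagcac
RPN2 (chrIX:220801-220829, minus strand): atttattttcGGTGGCAAAactggataca
RPN6 (chrIV:286790-286818, minus strand): tggttccaagGGTGGCAAAtgttggtaga
RPN10 (chrVIII:498968-498996, plus strand): caggcgggttTTCGCCACCggaatttaca
RPN13 (chrXII:965656-965684, minus strand): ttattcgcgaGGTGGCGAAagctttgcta
In *PRE4* and *SCL1* the motif lies on the opposite strand and reads as TTTGCCACC. *RPN10* and *RPN13* hold the looser form, *RPN10* on the opposite strand. The sites of the proteasome genes began between 84 bases (*RPT6*) and 183 bases (*PUP3*) before the start codon.

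**Figure D1:**
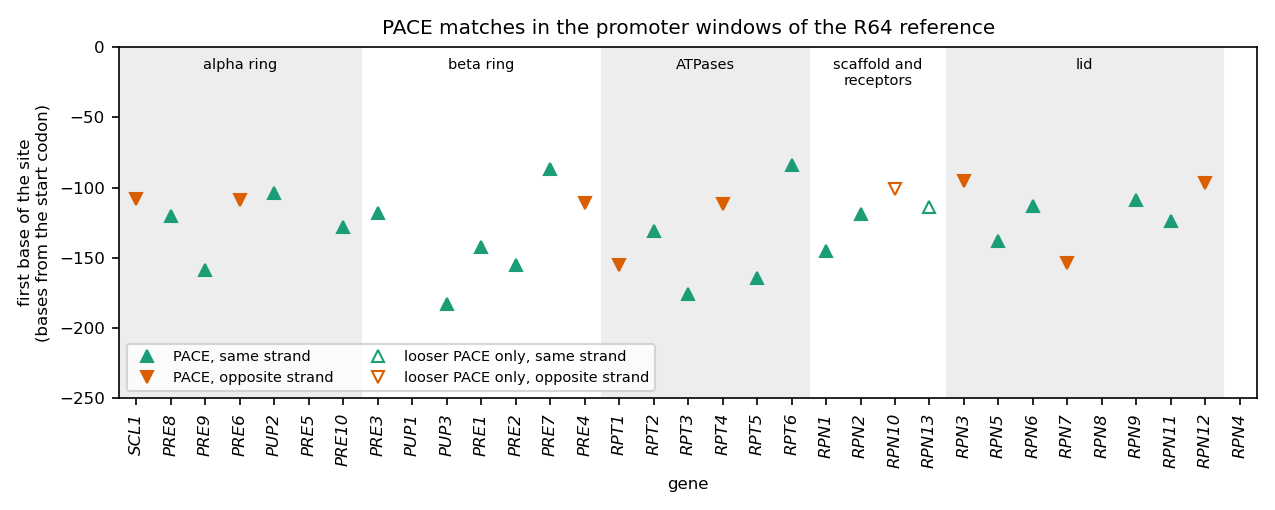
Position of PACE matches for each of the 33 genes, with the first base of the match in bases from the start codon on the vertical axis and the genes grouped by their place in the complex on the horizontal axis. Filled symbols are the letters GGTGGCAAA, open symbols the looser form alone, and the triangle points up for the strand of the gene; the matches lie between 84 and 183 bases before the start codon, and *PRE5*, *PUP1*, *RPN8* and *RPN4* have none.

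The libraries held 15050764 to 21532842 counts each, and the 33 genes took 0.614% to 1.04% of them. Single genes had from 955 counts (*RPN4*) to 10033 counts (*RPN2*) in a library, so counting error is small beside the spread between replicates. Levels are given as CPM, which are counts scaled to a common library total after TMM scaling, and as CPM per kb of coding sequence where genes are compared with each other. The labels of the pools were checked on untranslated RNAs, the annotated snoRNAs and snRNAs and the RNA of telomerase, whose summed level was 259 to 500 CPM in the 6 total libraries and 90.4 to 107 CPM in the 6 polysomal ones. The deletion itself lies in rRNA and could not be checked in these counts. Values are relative to the other mRNAs of a library, and fewer cells and less RNA per cell cannot be told apart.

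Per length, the mRNAs of the 20S core were the more abundant part of the complex. Without division by length, the ratio of summed 20S to summed 19S CPM was 0.521, 0.761 and 0.822 in the wildtype total libraries 1 to 3. Those sums are over 14 and 18 genes, and how CPM per kb varies with coding length over all genes was not tested. In wildtype total mRNA the median over the 14 20S genes was 263 CPM per kb, with a range from 219 (*PUP1*) to 331 (*PUP3*). The 18 19S genes had a median of 166 CPM per kb, from 110 ± 24.2 for *RPN1* (SD, n = 3) to 344 ± 36.7 for *RPN13*. The 14 genes of the core thus lay within a 1.51-fold range and those of the 19S particle within a 3.12-fold range. In ΔES27Lb total mRNA the medians were 305 CPM per kb for the 20S genes and 158 CPM per kb for the 19S genes. *RPN1*, *RPN3* and *RPN2* had the lowest levels per kb of the subunit genes in total mRNA of either strain. *RPN4* stood below every subunit gene in wildtype total mRNA, at 80.8 ± 16.6 CPM per kb, and in ΔES27Lb total mRNA, at 70.7 ± 10.8 CPM per kb. Its distance from *RPN1* in ΔES27Lb total mRNA, at 81.8 ± 9.95 CPM per kb, was within the spread of the replicates.

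Replicates differed in how much proteasome mRNA they held, and they did so for most of the genes at once. The summed level of the 32 subunit genes was 6722, 5641 and 7923 CPM in the wildtype total libraries 1 to 3 and 6134, 6331 and 8090 CPM in those of ΔES27Lb. In polysomal mRNA it was 8064, 7197 and 10830 CPM in wildtype and 8880, 9138 and 10490 CPM in ΔES27Lb. After TMM scaling the replicates numbered 3 were the highest in all 4 conditions. In ΔES27Lb this order was set by the scaling: as a share of the raw counts of a library, the 33 genes took 0.762%, 0.735% and 0.733% of the total libraries 1 to 3 and 1.004%, 0.748% and 0.793% of the polysomal ones. In wildtype replicate 3 had the highest raw share in both pools, at 1.04% in each. In wildtype polysomal replicate 3, 33 of 33 genes were above the mean of their condition, whereas 0 of 33 were in wildtype polysomal replicate 2. For comparison, 49.4% and 51.4% of all genes tested were above their condition mean in these libraries. The wildtype total library 1 differed in composition as well, with a ratio of summed 20S to summed 19S CPM of 0.521, where the other 11 libraries had 0.761 to 1.14.

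**Figure D2:**
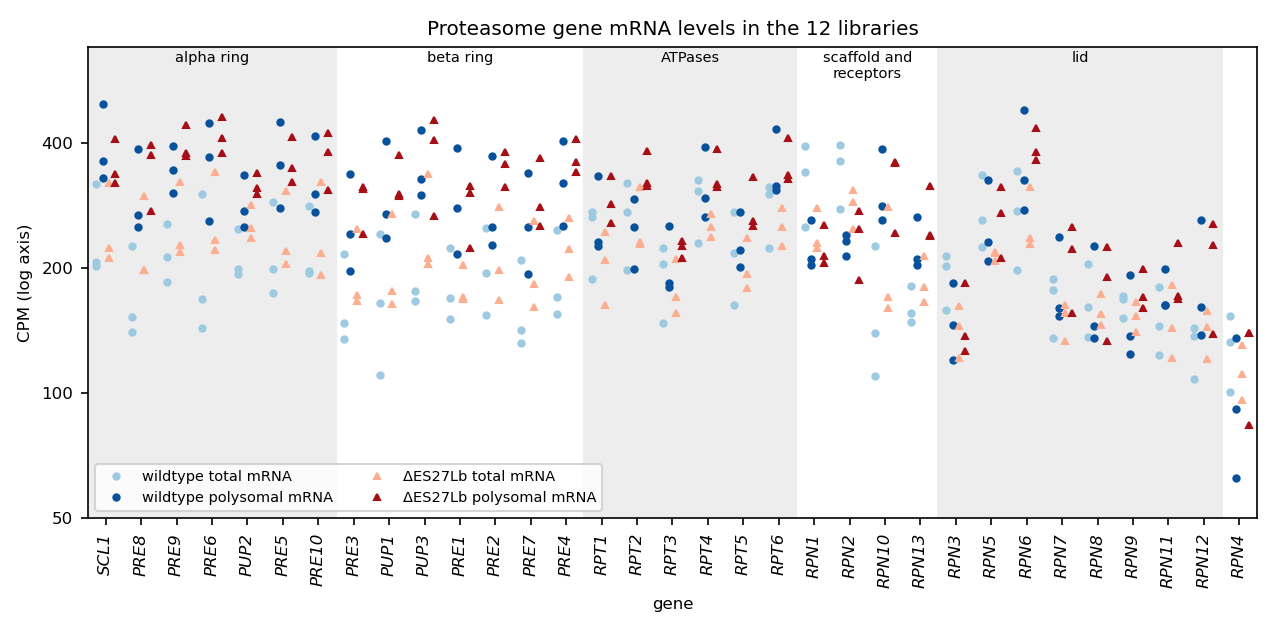
Levels of the 33 proteasome genes in all 12 libraries in CPM on a log axis, 1 point per library, with genes grouped by their place in the complex and conditions set side by side within each gene. Polysomal points (darker) of the 20S genes lie mostly above the total points (lighter), and those of *RPN1* and *RPN2* in wildtype mostly below them.

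The first comparison asks which proteasome mRNAs were held in polysomes in wildtype cells, read from the polysomal level of each mRNA over its total level (P/T). Both levels are after TMM scaling, and where 0 lies depends on it. As a share of raw counts, the 33 genes took 0.793%, 0.644% and 1.04% of the wildtype total libraries 1 to 3. In the polysomal ones they took 0.726%, 0.614% and 1.04%. The TMM factors were 1.16, 1.12 and 1.29 in total and 0.893, 0.843 and 0.95 in polysomal mRNA. All 14 mRNAs of the 20S core had a positive fitted log2 P/T, from 0.43 (*PUP2*) to 0.81 (*PUP1*), with a median of 0.70, which is the log2 value beside a median of -0.06 over all genes tested. The 18 19S mRNAs were spread around 0, with a median log2 P/T of 0.11, 12 positive and 6 negative. That median was 0.30 without wildtype culture 1 and 0.01 without wildtype culture 3. A culture here means the total and the polysomal library of a strain with the same number, a pairing inferred from these counts and stated by no source. The highest value of all was that of the ubiquitin receptor *RPN10* (YHR200W), at 0.96 ± 0.33 (SE), and the lowest were those of the scaffold genes *RPN2* (YIL075C), at -0.59 ± 0.23, and *RPN1* (YHR027C), at -0.55 ± 0.23. In the edgeR quasi-likelihood test over the 12 libraries, 0 of the 33 genes were called at an adjusted p of 0.05, as against 0.117% of all genes. The lowest adjusted p among them was 0.1 (*RPN10* and *PRE4*). At an unadjusted p of 0.05, 13 of the genes were higher and 2 lower in polysomes, with 12.8% and 15.6% of all genes, and DESeq2 called 4 as higher (*PRE8*, *PRE9*, *PRE4* and *RPN10*), with 6.41% of all genes.

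Over 5152 genes, total and polysomal libraries of the same number deviated together from the means of their conditions. Across the 33 genes alone this did not hold in every culture. There the deviations correlated with r = -0.28, -0.24 and 0.30 in the wildtype cultures 1 to 3 and 0.61, -0.18 and 0.35 in those of ΔES27Lb. The edgeR fit with the culture as a block, which rests on this inferred pairing, called more. In that paired fit 16 of the 33 mRNAs rose in polysomes, with 16.9% of all genes called in this direction. These were all 14 mRNAs of the 20S core and the receptors *RPN10* and *RPN13*. The core mRNAs were 1.34-fold (*PUP2*) to 1.80-fold (*PRE6*) higher, and *RPN10* was 2.01-fold higher, with a log2 P/T of 1.01 ± 0.19 and an edgeR adjusted p of 0.012. *RPN2* alone fell, to 0.67-fold with an edgeR adjusted p of 0.034, with 15.6% of all genes called in this direction, and *RPN1* missed the threshold at an edgeR adjusted p of 0.051. None of the 6 ATPase genes and none of the 8 lid genes was called. The count of genes that rose in the paired fit was 14, 12 and 7 without wildtype culture 1, 2 and 3, and 13 to 16 without a culture of ΔES27Lb. Of all genes, 14.4%, 23.8% and 15.7% were called in either direction without wildtype culture 1, 2 and 3. Without a culture of ΔES27Lb, 25.6% to 32.5% were. The fall of *RPN2* was lost without any 1 of the 3 wildtype cultures.

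The catalytic genes show what these ratios rest on. *PRE3* (YJL001W), the caspase-like subunit, stood at 147, 135 and 216 CPM in the wildtype total libraries 1 to 3 and at 241, 197 and 336 CPM in the polysomal ones. *PUP1* (YOR157C), the trypsin-like subunit, stood at 111, 165 and 242 CPM in total and 269, 237 and 403 CPM in polysomal mRNA. *PRE2* (YPR103W), the chymotrypsin-like subunit, stood at 194, 155 and 249 CPM in total and 251, 227 and 372 CPM in polysomal mRNA. After TMM scaling, each of these genes stood higher in every polysomal library than in the total library of the same number. The 3 total and the 3 polysomal values overlapped, since the libraries of culture 3 were high in both pools. *RPN10* gave 110, 139 and 226 CPM in total and 281, 260 and 386 CPM in polysomal mRNA, and here the pools did not overlap. *RPN2* gave 396, 277 and 362 CPM in total and 232, 214 and 240 CPM in polysomal mRNA, again without overlap and in the other direction. *RPN1* gave 393, 251 and 341 CPM in total and 203, 211 and 260 CPM in polysomal mRNA, where the highest polysomal value exceeded the lowest total one. Over the 33 genes, 8 were higher in polysomes without overlap (*SCL1*, *PRE8*, *PRE9*, *PUP2*, *PUP3*, *PRE4*, *RPN10* and *RPN13*) and 1 lower (*RPN2*), with 14.5% and 16.9% of all genes.

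In ΔES27Lb cells the fitted log2 P/T was positive for 31 of the 33 mRNAs, with a median of 0.50 beside -0.06 over all genes. The 20S mRNAs ranged from 0.31 (*PUP2*) to 0.71 (*PRE4*), with a median log2 P/T of 0.59. The 6 ATPase mRNAs ranged from 0.32 (*RPT3*) to 0.51 (*RPT6*), with a median of 0.45, and the 8 lid mRNAs had a median of 0.33. *RPN2*, at -0.25 ± 0.23 (SE), and *RPN1*, at -0.12 ± 0.23, were again the lowest. The edgeR test without a block called 0 of the 33 genes and 0% of all genes. At an unadjusted p of 0.05 it gave 7 of them as higher and 0 as lower, with 4.8% and 10.2% of all genes, and DESeq2 called 0, with 0.434% of all genes called as higher.

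The fit paired by culture called 7 of the 33 mRNAs as higher in polysomes of ΔES27Lb and 0 as lower, with 2.88% and 4.08% of all genes. They were the core genes *PRE9*, *PRE10*, *PUP1*, *PRE2*, *PRE7* and *PRE4* and the lid gene *RPN6*, whose product clamps the lid to the core. Their rise was between 1.50-fold (*PRE7*) and 1.66-fold (*PRE2*), and their edgeR adjusted p ran from 0.045 to 0.048, close under the threshold. *RPN10* had a log2 P/T of 0.68 ± 0.19 and an edgeR adjusted p of 0.054. These calls depended on the libraries in the fit: without wildtype culture 1, 24 of the 33 genes were called, and without any other single culture 0 were. Over all genes, 28.1% were called in either direction without wildtype culture 1 and 0 to 22 genes without any other culture.

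In single libraries, *PRE4* (YFR050C), a beta subunit, stood at 222, 191 and 263 CPM in the ΔES27Lb total libraries 1 to 3 and at 359, 341 and 408 CPM in the polysomal ones. *PRE2* stood at 167, 197 and 280 CPM in total and 314, 357 and 380 CPM in polysomal mRNA. Neither gene overlapped between the pools. *PUP1* gave 164, 177 and 269 CPM in total and 298, 301 and 374 CPM in polysomal mRNA, likewise without overlap. *PRE3* gave 172, 166 and 249 CPM in total and 242, 309 and 313 CPM in polysomal mRNA, where the lowest polysomal value lay under the highest total one. The scaffold genes overlapped widely, with *RPN2* at 248, 308 and 288 CPM in total and 275, 248 and 187 CPM in polysomal mRNA. *RPN1* stood at 224, 278 and 230 CPM in total and 253, 206 and 214 CPM in polysomal mRNA. Of the 33 genes, 17 were higher in polysomes without overlap, among them all 6 ATPase genes, with 9.43% of all genes, and 0 were lower, with 12.6% of all genes.

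Within single cultures, a log2 P/T above 0 was common among these mRNAs. It was above 0 in all 3 wildtype cultures for 19 of the 33 genes (32.4% of all genes) and in all 3 ΔES27Lb cultures for 25 (25.7% of all genes). The 19 genes of wildtype were above 0 in all 6 cultures, with 20.5% of all genes. These 19 are the 14 core genes, *RPT6*, *RPN10*, *RPN13*, *RPN6* and *RPN12*. Wildtype culture 1 differed from the other cultures in the contrast within the complex. Its mean log2 P/T was 0.88 for the 20S genes and -0.17 for the 19S genes, a difference of 1.05. The same difference was 0.37 in each of the other wildtype cultures and 0.16, 0.55 and 0.09 in the ΔES27Lb cultures 1 to 3. The 20S mean was above the 19S mean in 6 of 6 cultures, and the differences of the strains overlapped.

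**Figure D3:**
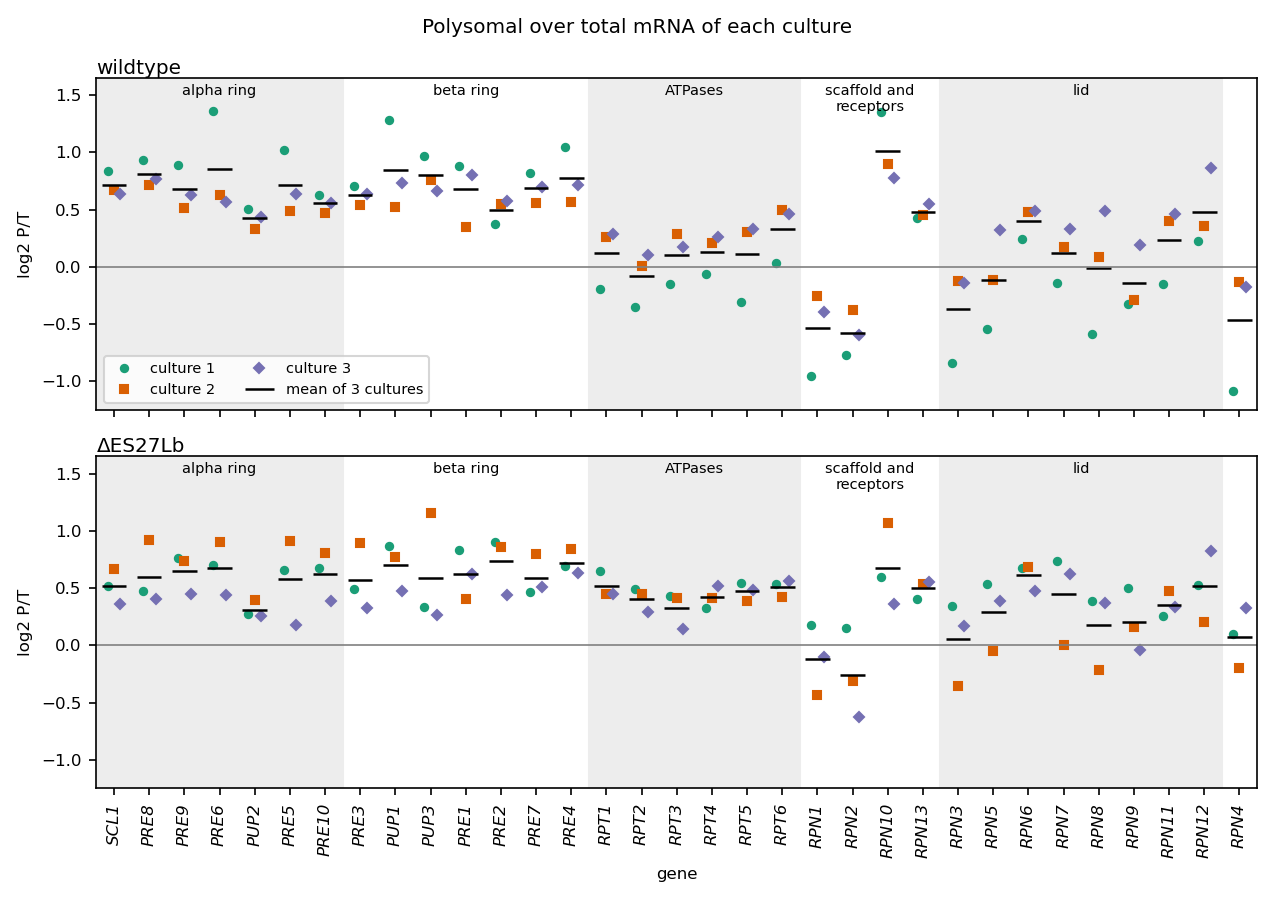
log2 P/T of each proteasome gene in each of the 3 wildtype cultures (top) and the 3 ΔES27Lb cultures (bottom), with the mean of the 3 as a line. The core genes lie above 0 in all 6 cultures, while the ATPase and lid genes of wildtype culture 1 mostly lie lower than those of the other cultures.

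The subunits differ in length, and so do their ratios. Coding sequences of the 20S genes had a median of 762 nt, those of the ATPases 1310 nt, and *RPN1* and *RPN2* have 2982 and 2838 nt, beside a median of 1233 nt over the 5695 genes tested that have an annotated coding length. Across these genes the rank correlation of log2 P/T with coding length was -0.61, -0.54 and -0.67 in the wildtype cultures 1 to 3 and -0.15, -0.57 and -0.36 in those of ΔES27Lb. Wildtype culture 1 had the steepest slope, a log2 P/T of -0.49 per doubling of length, where wildtype cultures 2 and 3 had -0.20 and -0.27 and the ΔES27Lb cultures -0.01, -0.28 and -0.08. Across the 33 genes the rank correlation was -0.82, -0.75 and -0.82 in wildtype and -0.30, -0.69 and -0.27 in ΔES27Lb. These are descriptions across genes, which share their libraries and are not independent replicates. Measured from a loess curve of log2 P/T on coding length over all genes, the wildtype median of the 33 genes was 0.20 above the curve, compared with 0.43 above 0. All 14 core genes lay above the curve, with a median of 0.32, and 11 of 18 19S genes did, with a median of 0.08, where 57.8% of all genes did. *RPN10* lay 0.67 above it, higher than 98.3% of all genes, whereas *RPN2* lay 0.06 below it and *RPN1* 0.01 above it, close to other mRNAs of their length. In ΔES27Lb all 33 genes lay above the curve, beside 57.5% of all genes, by 0.10 (*RPN8*) to 0.59 (*RPN6*) and with a median of 0.37. The part that transcript length itself plays in these ratios was not tested.

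**Figure D4:**
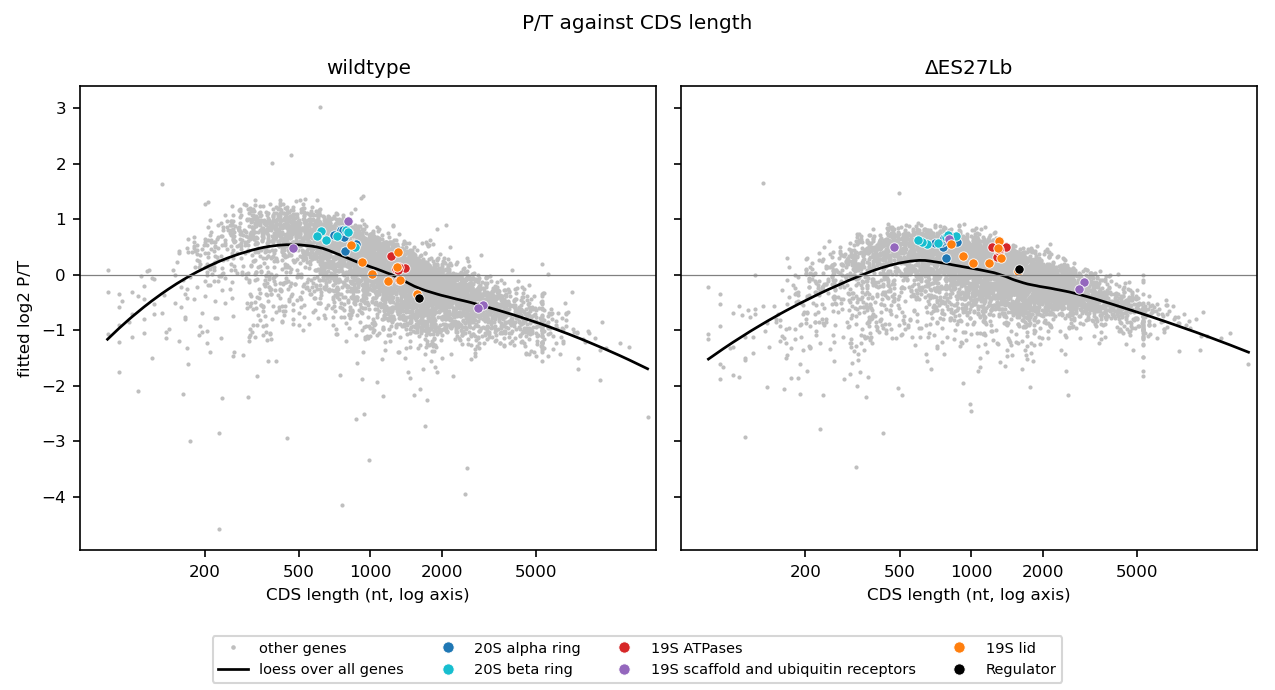
Fitted log2 P/T against coding length on a log axis for all 5695 genes with an annotated length (grey) and the 33 proteasome genes (coloured by their place in the complex), in wildtype (left) and ΔES27Lb (right), with a loess curve over all genes. In ΔES27Lb all 33 genes lie above the curve, and in wildtype 25 do, with *RPN10* the farthest above it.

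The next comparison asks whether ribosome association of these mRNAs differed between the strains. No proteasome gene passed: the edgeR test of the interaction between strain and pool called 0 of the 33 genes, with 0% of all genes, and at an unadjusted p of 0.05 it also gave 0, with 0.766% of all genes. The fit with the replicate block, with 0% of all genes, and DESeq2, with 0.0167% of all genes, called 0 of the 33 as well. The fitted differences, ΔES27Lb minus wildtype in log2 P/T, had standard errors of 0.30 to 0.46, which sets how large a difference could be called. They were positive for 17 of the 18 19S genes, with a median of 0.31, and negative for 12 of the 14 20S genes, with a median of -0.12, beside a median of 0.00 over all genes. The 18 genes leave out *SEM1*, a lid subunit gene listed below with the associated factors. Its difference was -0.513 ± 0.395 (SE), below that of any of the 33 genes. The sign of the 20S median rested on single cultures: it was 0.03 without wildtype culture 1, with 8 of 14 genes positive, and 0.01 without ΔES27Lb culture 3, with 9 of 14 positive. The 19S median was 0.20 without wildtype culture 1, with 14 of 18 genes positive, and 0.17 without ΔES27Lb culture 1. The highest differences were those of *RPN4*, at 0.52 ± 0.43 (SE), and *RPT2* (YDL007W), at 0.49 ± 0.35, and the lowest was that of *RPN10*, at -0.31 ± 0.46. Without wildtype culture 1 they were 0.30 for *RPN4*, 0.37 for *RPT2* and -0.13 for *RPN10*, and without ΔES27Lb culture 3 *RPN10* had -0.09.

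The P/T values of single cultures did not overlap between the strains for 4 of the 33 genes, all of them ATPases and all higher in ΔES27Lb (*RPT1*, *RPT2*, *RPT4* and *RPT5*), with 3.25% of all genes, and 0 were lower, with 4.25% of all genes. For *RPT2* the log2 P/T was -0.35, 0.01 and 0.10 in the wildtype cultures 1 to 3 and 0.49, 0.45 and 0.29 in those of ΔES27Lb. For *RPT1* it was -0.20, 0.27 and 0.29 in wildtype and 0.65, 0.45 and 0.45 in ΔES27Lb. In both genes wildtype culture 1 was the lowest of the 6 cultures and the values of the other cultures lay closer together. For *RPN10* it was 1.35, 0.90 and 0.77 in wildtype and 0.60, 1.07 and 0.36 in ΔES27Lb, with wide overlap. An exact permutation test of 3 against 3 cultures cannot give a two-sided p below 0.1, and none is given. Measured from the loess curve of the strain difference on coding length, 27 of the 33 genes lay above the curve, beside 50.1% of all genes, with a median of 0.16. All 6 ATPase and all 8 lid genes were among them. Of the 14 20S genes, 9 lay above this curve, with a median of 0.03 from it, compared with -0.12 from 0.

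**Figure D5:**
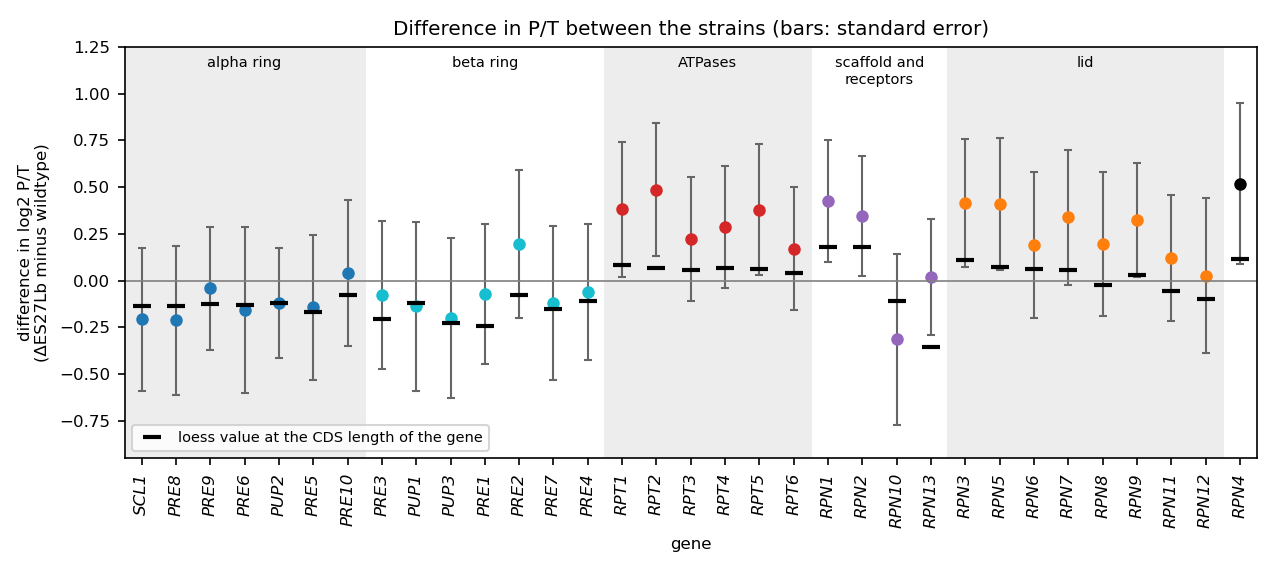
Fitted strain difference in log2 P/T (ΔES27Lb minus wildtype) for each proteasome gene, with bars of 1 standard error and a dash for the loess value over all genes at the coding length of that gene. The 19S genes shown lie above 0 except *RPN10*, the core genes lie below 0 except *PRE10* and *PRE2*, and no gene passed the test.

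The total mRNA levels of the complex were compared between the strains as well. The edgeR test called 0 of the 33 genes, with 0% of all genes, and gave 0 at an unadjusted p of 0.05, with 5.85% of all genes. DESeq2, with 0.0667% of all genes, and the fit with the replicate block, with 0% of all genes, also called 0. The fitted log2 differences, ΔES27Lb minus wildtype, were positive for 13 of 14 20S genes, with a median of 0.24, and negative for 15 of 18 19S genes, with a median of -0.10. The 20S median was 0.09 without replicate 1 of wildtype and 0.00 without replicate 3 of ΔES27Lb, and the 19S median ran from -0.26 without replicate 2 of wildtype to -0.03 without replicate 1 of ΔES27Lb. The highest was that of *PRE8* (YML092C), an alpha subunit, at 0.42 ± 0.28 (SE), which stood at 140, 153 and 226 CPM in wildtype and 197, 198 and 298 CPM in ΔES27Lb. Its values overlapped between the strains, with 226 CPM in wildtype above the 197 and 198 CPM in ΔES27Lb. Its difference ran from 0.17 without replicate 3 of ΔES27Lb to 0.66 without replicate 3 of wildtype. The lowest was that of *RPN1*, at -0.43 ± 0.23, with the overlapping values given above. The lid gene *RPN5* was the only one whose libraries did not overlap, at 336, 225 and 261 CPM in wildtype and 217, 218 and 208 CPM in ΔES27Lb, with 3.02% of all genes lower in this way, and 0 of the 33 were higher, with 5.05% of all genes. The median difference over the 33 genes was 0.00, and it was 0.18 without replicate 3 of wildtype and -0.18 without replicate 3 of ΔES27Lb.

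In polysomal mRNA no proteasome gene was called between the strains. The edgeR test called 0 of the 33 genes, with 0% of all genes, and gave 0 at an unadjusted p of 0.05, with 1.22% of all genes. DESeq2, with 0.0667% of all genes, and the fit with the replicate block, with 0% of all genes, called 0. The median log2 difference was 0.15, with 29 of the 33 genes positive, and it ran from 0.02 without replicate 2 of wildtype to 0.35 without replicate 3 of wildtype. The highest was that of *RPT2*, at 0.45 ± 0.25 (SE), which stood at 251, 199 and 293 CPM in wildtype and 321, 316 and 381 CPM in ΔES27Lb and was the only gene without overlap, with 3.02% of all genes higher and 2.6% lower in this way. *SCL1* (YGL011C), an alpha subunit, was the lowest at -0.16 ± 0.27, with 362, 329 and 497 CPM in wildtype and 320, 336 and 410 CPM in ΔES27Lb. Its sign rested on wildtype replicate 3, without which the difference was 0.04.

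*RPN4* (YDL020C) itself gave no call in any of the 5 comparisons. In the wildtype total libraries 1 to 3 it stood at 133, 101 and 153 CPM and in the polysomal ones at 62.5, 91.7 and 136 CPM. Each culture had less of it in polysomes than in total mRNA, and the pools overlapped. In ΔES27Lb it stood at 131, 96.4 and 111 CPM in total and 140, 84.0 and 140 CPM in polysomal mRNA, higher in polysomes in 2 of 3 cultures. The fitted log2 P/T was -0.42 ± 0.31 (SE) in wildtype and 0.10 ± 0.31 in ΔES27Lb. The wildtype value was -0.14 without culture 1, whose own log2 P/T was -1.09. In total mRNA the log2 difference between the strains was -0.19 ± 0.31 and in polysomal mRNA 0.33 ± 0.31, the latter running from 0.09 without wildtype replicate 1 to 0.65 without wildtype replicate 3. Against mRNAs of its length *RPN4* lay 0.18 below the loess curve in wildtype, the lowest of the 33 genes, and 0.23 above it in ΔES27Lb.

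Other genes that serve the proteasome were grouped by what they do, in 5 lists with 34 genes, all of which passed the filter. None was called by the edgeR test without a block in either strain. The 10 assembly chaperones build the core and the base and leave the finished complex. In wildtype they resembled the core genes in value, with a median log2 P/T of 0.74 beside 0.70. In ΔES27Lb their median was lower than that of the core genes, at 0.44 beside 0.59. The fit paired by culture called 8 of the 10 as higher in wildtype (16.9% of all genes) and 3 in ΔES27Lb (2.88% of all genes). The 3 were *NAS2*, *NAS6* and *TMA17*, with an edgeR adjusted p of 0.045 to 0.048, close under the threshold. In ΔES27Lb only 0 to 22 of all genes were called without any 1 culture other than wildtype culture 1. *UMP1*, the chaperone enclosed in the maturing core, had the highest value of the list, at 1.16 ± 0.36 (SE) in wildtype and 0.81 ± 0.36 in ΔES27Lb. *HSM3*, which binds the ATPase base, had the lowest, at 0.09 ± 0.25 and -0.06 ± 0.25. None of the 10 windows held PACE in either form. The chaperones are also short, with a median of 675 nt, and all 10 lay above the length curve in wildtype and 8 in ΔES27Lb.

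The 6 proteasome-associated factors had a median log2 P/T of -0.31 in wildtype and -0.15 in ΔES27Lb. They include *SEM1*, a lid subunit gene that the choice by name left out of the set. It had 0.61 ± 0.28 (SE) in wildtype and 0.10 ± 0.28 in ΔES27Lb. *ECM29*, which tethers the cap to the core, had the lowest value, at -1.06 ± 0.41 (SE) in wildtype and -0.91 ± 0.41 in ΔES27Lb. The paired fit called it as lower in both strains, together with *BLM10*, an alternative cap, and in wildtype *HUL5*, a ubiquitin ligase, while *FUB1* was called as higher in wildtype. Of all genes, 15.6% were called as lower and 16.9% as higher in wildtype and 4.08% as lower in ΔES27Lb. As for the proteasome genes, calls of the paired fit in ΔES27Lb depended on the cultures, with 0 to 22 genes of all called without any culture but wildtype culture 1. The 7 genes of Cdc48 and the shuttle factors that bring substrates to the proteasome had medians of 0.26 and 0.45. The shuttle *DSK2* was the highest, at 0.65 ± 0.36 in wildtype and 0.68 ± 0.36 in ΔES27Lb, and was called as higher in both strains in the paired fit, and *SHP1* in ΔES27Lb (16.9% and 2.88% of all genes). The difference of *SHP1* between the strains, at 0.40 ± 0.51 (SE), had an edgeR adjusted p of 1. The authors proposed *SHP1* as an mRNA that ΔES27Lb ribosomes translate with preference. They reported RT-qPCR of its P/T in 3 biological replicates as verification, which these counts cannot address. *CDC48*, whose window holds PACE, was the lowest in wildtype, at -0.35 ± 0.30, and had 0.14 ± 0.30 in ΔES27Lb. *NPL4* was the lowest in ΔES27Lb, at 0.02 ± 0.24.

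The 7 genes that act on *RPN4* or on the Rpn4 protein had medians of -0.51 in wildtype and -0.37 in ΔES27Lb. *UBR2*, the ubiquitin ligase for Rpn4, was the lowest, at -0.92 ± 0.38 (SE) and -0.90 ± 0.38, and was called as lower in both strains in the paired fit (15.6% and 4.08% of all genes), in ΔES27Lb at an edgeR adjusted p of 0.046. No gene was called there without ΔES27Lb culture 2 or without culture 3. Its partner *MUB1* and the transcription factor *PDR3* were called as lower in wildtype. *RAD6*, the ubiquitin-conjugating enzyme of the same step, was the highest, at 0.39 ± 0.21 and 0.56 ± 0.21. The 4 ubiquitin genes had medians of 0.85 and 0.49. *RPL40A* and *RPL40B*, which encode the same ubiquitin fusion protein, were called as higher in wildtype in the paired fit (16.9% of all genes), and their reads could be split between the copies in an unknown way. *RPL40A* had the highest value in wildtype, at 1.19 ± 0.40, and *UBI4*, the polyubiquitin gene with a PACE in its window, the lowest, at 0.44 ± 0.52. In ΔES27Lb *RPL40B* was the highest, at 0.65 ± 0.39, and *RPS31* the lowest, at 0.20 ± 0.38. In the comparison of P/T between the strains none of the 34 genes was called.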

How the data were processed

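Poly(A) RNA was sequenced with a stranded mRNA kit on a HiSeq3000. The authors aligned reads to BY4742 with HISAT2 and counted them with featureCounts, and the deposited values are raw counts per gene and library. Versions, annotation, the strand setting and the treatment of reads with several matches were not given in the sources used here, so overlap with genes of that annotation is unknown. In R64 no proteasome gene overlaps another annotated gene. Groups came from the sample titles. The strain label is yJD1045 throughout, although the source label counts up.

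Proteasome genes were selected by name, and the set and the pathway lists were chosen with earlier results of these data known. Counts were fitted with edgeR 4.0.16 (R 4.3.3) by the quasi-likelihood test, with TMM scaling, the default filter, 1 mean per condition over 12 libraries and Benjamini-Hochberg adjustment over 6003 genes at 0.05. Any proteasome gene could be named, and those given with values in each library are *RPN4*, the catalytic subunits and the members with the highest and lowest values of each comparison. *RPN5* and *RPT1* were named after their values were seen. A prior count of 0.5 was added for the P/T of each culture, and loess had a span of 0.5. The tests were tested on simulated data.

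Replicate numbers were taken to mark cultures, pairing polysomal with total libraries, since over 5152 genes their deviations from the condition means correlated with r = 0.40, 0.68 and 0.90 in wildtype and 0.50, 0.20 and 0.72 in ΔES27Lb. The replicate block was the culture for P/T and its difference between the strains, and the replicate number within a pool for total and polysomal mRNA between the strains. Libraries of the same number in both strains correlated with r = 0.19, 0.40 and 0.43 in total and -0.11, 0.55 and 0.30 in polysomal mRNA. Some of these values exceeded the 0.20 of ΔES27Lb culture 2, so the correlation alone does not settle the pairing. The block used the numbers in both pools, although r was negative for polysomal replicate 1. No source says what such a number shares. Alternatives were DESeq2 1.42.0, its size factors within edgeR, no filter, at least 10 counts in every library, unadjusted p, a fit of the compared libraries alone, a replicate block, coding length regressed out, and leaving out each culture. The block with coding length regressed out, the block without each culture, and medians of 20S and 19S genes and *RPT2* without each culture, were chosen after seeing the data. Symbols and coding lengths came from the RefSeq annotation of R64. Plots were drawn with matplotlib.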

Additional observations from a re-analysis of the deposited data

How the results depend on the processing

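Among 361 values under alternatives, 345 kept their direction and their side of the threshold or stayed within the spread of the replicates. The exceptions in wildtype P/T were the counts of proteasome genes called: none were called in the main test, while DESeq2 gave 4 as higher, the replicate block 16 as higher and 1 as lower, and unadjusted p 13 as higher and 2 as lower. In ΔES27Lb the replicate block gave 7 as higher and unadjusted p also 7. In the single genes, the block brought *RPN10* and *RPN2* in wildtype and *PRE4* in ΔES27Lb past the threshold, and DESeq2 brought *RPN10*. In the fit with the block, leaving out 1 culture gave 7 to 16 genes as higher in wildtype and 0 to 24 in ΔES27Lb. The shares of all genes called in either direction were 14.4% to 32.5% in wildtype and 0% to 28.1% in ΔES27Lb. With coding length regressed out, the median log2 P/T of the 33 genes went from 0.43 to 0.20 in wildtype (0.16 with the block) and from 0.50 to 0.37 in ΔES27Lb (0.36 with the block). The difference of *SCL1* in polysomal mRNA ran from -0.28 (without ΔES27Lb replicate 3) to 0.039 (without wildtype replicate 3) around -0.16, and so turned in sign. The block changed no call of a proteasome gene in the comparisons between the strains. Without each culture in turn, the median log2 P/T ran from 0.36 to 0.51 in wildtype and from 0.45 to 0.57 in ΔES27Lb, and its difference between the strains from 0.09 to 0.24, with no gene called in any of these fits without a block. The fit of only the libraries compared is the main fit for the difference in P/T and was not repeated there. With 3 replicates and standard errors of about 0.26 on the log2 scale for P/T, the spread between replicates and not the depth limits what could be called.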
